A study of Arabidopsis thaliana with 36 samples.

Results

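Protease genes of the Arabidopsis root, the aspartyl protease genes AT1G09750 and AT3G54400 and the cysteine protease gene AT4G16190, were followed across 6 sorted cell populations with and without salt. They were taken by locus, each has 1 probe set that names no other gene, and they make up 3 of the 22810 probe sets on the array. All 3 were chosen on measured values of these arrays, and the salt responses they were chosen by are described without a test. AT1G09750 was chosen by its high signal in cortex and the lower signal there with salt, AT3G54400 by its lower mean signal with salt, and AT4G16190 by its higher signal with salt in columella.

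Pepsin-like aspartyl proteases cut proteins with a pair of catalytic aspartates. Papain-like cysteine proteases use a catalytic cysteine and are made as inactive precursors that are processed in the endomembrane system or the vacuole. In plants both families act in protein turnover, defence and developmental cell death, vacuolar processing enzymes activate some of the other vacuolar hydrolases, and cystatins and serpins inhibit cysteine proteases. Several papain-like protease genes were first described as transcripts of drying leaves. The promoter of AT1G09750 is known as the one that drives GFP in the CORTEX line. High signals of this gene in sorted cortex thus follow in part from the sort and from its choice, and do not check the sort.

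The study used Arabidopsis thaliana of ecotype Columbia, and asked how cell identity shapes the response to salt. Root cells of seedlings aged 6 days were protoplasted and sorted on GFP, from lines labelled WER::GFP (epidermis with lateral root cap), PET111 (columella), CORTEX (cortex), SCR::GFP (endodermis with quiescent centre), WOL::GFP (stele) and S32 (protophloem). Plants stayed on standard medium, which contains sucrose, or were moved to 140 mM NaCl for 1 h before the walls were digested. Each of the 12 groups has 3 arrays, and the labels do not say that these came from separate plantings, so p-values measure the spread between arrays, which may be technical. All groups, controls included, went through wall digestion and sorting, and each population comes from a single reporter line. Because each array holds pooled cells scaled to a common level, fewer cells of a type and less transcript per cell cannot be told apart.

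Signals are linear MAS5 values, with array medians of 62.1 to 95.6. A signal at or under the 40th percentile of its array (32.4 to 66.3) is called low here, since it cannot be told from background without detection calls, which were not used here. Of 22810 probe sets, 17633 passed the filter on low signals, and all 3 genes were among them. Differences are on the log2(signal + 16) scale, folds included, which understates changes of low signals. Arrays differed within groups: correlations between replicates were 0.862 to 0.988, lowest for stele on standard medium replicate 3 and cortex with salt replicate 3. The summed signal of the root hair expansin genes EXPA7 and EXPA18, the 2 epidermis markers with a probe set naming 1 gene, was 2213 on that stele array against 202 and 212 on its replicates, and highest on replicate 3 in 11 of the 12 groups. It was 837 on cortex with salt replicate 3 against 381 and 384, and 574 on endodermis with salt replicate 3 against 17.5 and 85.1. The cortex marker CO2 (AT1G62500) did not pass the filter and had at most 37.7 in any group, while on standard medium the mean signal of EN7 (AT4G28100), an endodermis gene, was 447 in its own population and 383 in that of the cortex.

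AT1G09750 had its highest signals in cortex, which follows in part from its choice and from the sort. On standard medium its signals in cortex were 3040, 2218 and 2691, a mean of 2650 ± 413 (SD, n = 3). With salt the cortex arrays had 237, 207 and 261, a mean of 235 ± 27.2. No array of one medium reached those of the other, as for 49.3% of all probe sets tested in cortex. Cortex with salt was thus 10.6-fold lower, a log2 difference of -3.40 ± 0.36 (SE), given here as a description because it was a reason for choosing the gene. On the same arrays markers of other cell types moved too. EN7 went from 383 ± 30.1 to 161 ± 25.4, the summed expansin signal from 93.6 to 136 on standard medium to 381 to 837 with salt, and AGL42 (AT5G62165), a quiescent centre gene, from 132 ± 9.15 to 357 ± 198. Their part in the result, and in the other cortex results below, was not tested.

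Outside cortex the gene was near background. On 29 of the 30 arrays of the other populations it was at or under the 40th percentile, and the exception was the same stele array that carried the expansin signal. The gene thus passed the filter through its cortex arrays, where it was chosen. Its responses outside cortex are therefore described without a test. In stele the standard arrays had 25.3, 39.3 and 106, and the salt arrays 10.4, 4.61 and 14.9. These 2 sets of arrays did not overlap, with a log2 difference of -1.35 ± 0.36 (SE). It is a description, because the salt arrays and standard replicates 1 and 2 were at or under the 40th percentile. In stele 25.3% of all probe sets tested were called, 13.9% lower, and 43.1% did not overlap. The stele difference of AT1G09750 was -0.90 without standard replicate 3 and -1.20 without salt replicate 2. The other 4 responses, also descriptions, were -0.46 in epidermis, -0.34 in columella, -0.30 in endodermis and 0.27 in protophloem. Every array of these 4 populations was at or under the 40th percentile, so the values cannot show that a response was absent. The share of all probe sets called was 28.3%, 14.2%, 2.52% and 24.2% in these populations.

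With salt the cortex still stood above the other populations for this gene, a description because the sort uses its promoter. Its lowest cortex array with salt, 207, lay above 106, the highest array of any other group. The salt cortex arrays were thus low against cortex on standard medium and high against all the other tissues.

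**Figure D1:**
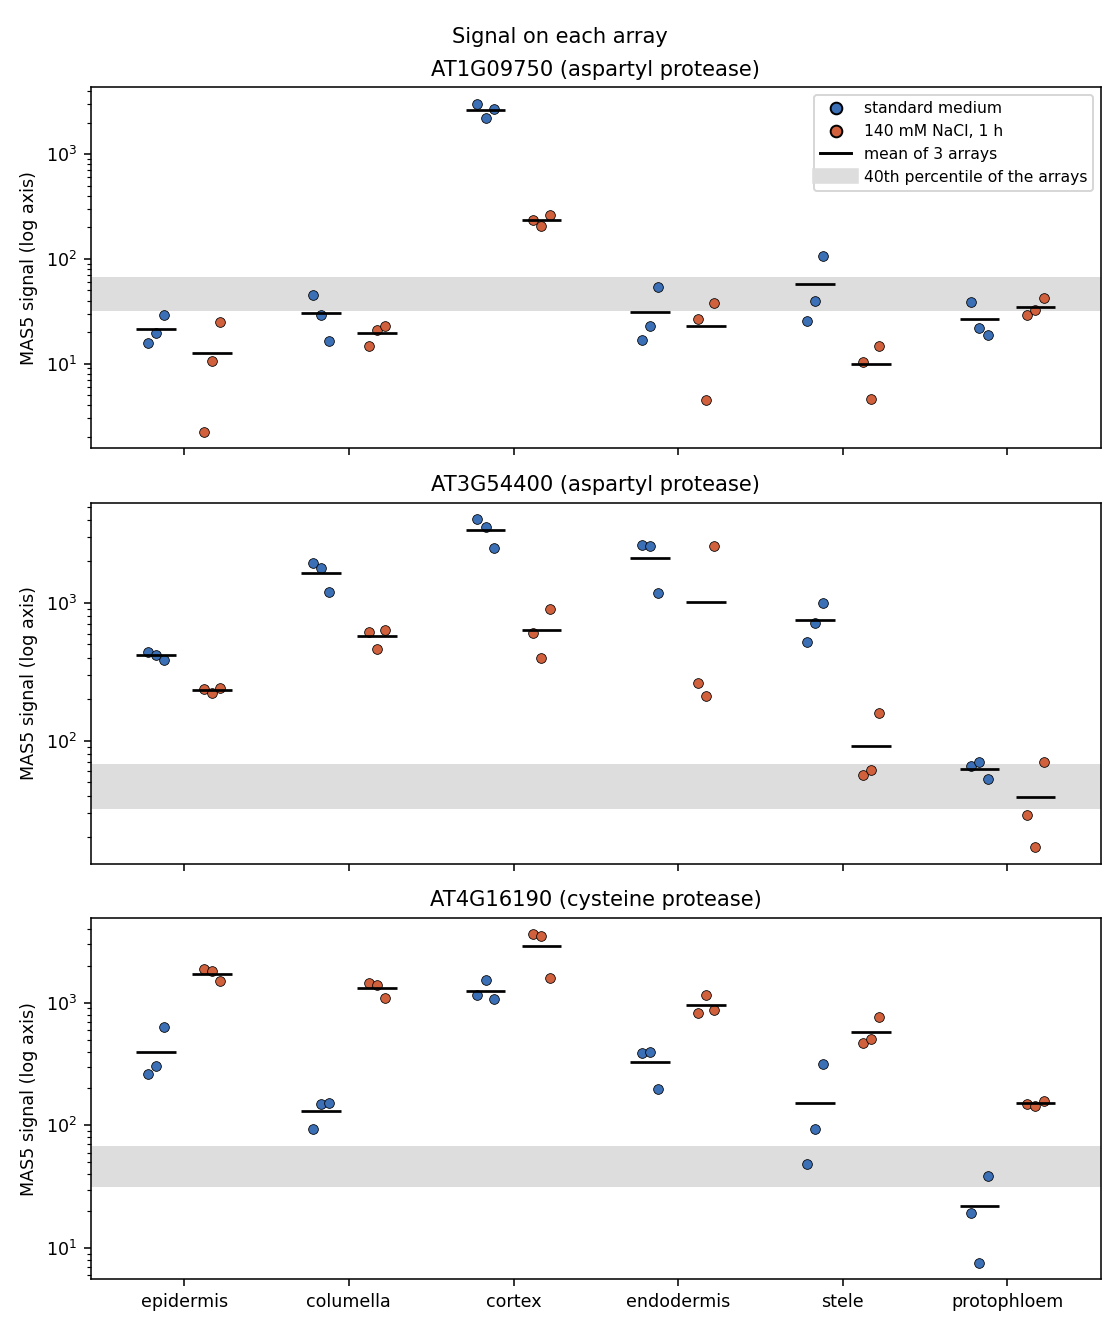
MAS5 signal of each gene on each of the 36 arrays (log axis), by population and medium; points are arrays, black lines are means of 3, and the grey band spans the arrays' 40th percentiles. AT1G09750 stands above the band in cortex and on 1 stele array, and AT3G54400 is lower with salt. Every salt array of AT4G16190 lies above the standard arrays of its population, as for 1.01% of all probe sets tested. This is a description, because the gene was chosen by its columella arrays.

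AT3G54400 was measured over a wider set of populations. On standard medium its mean signal was 3370 ± 801 in cortex, 2133 ± 825 in endodermis, 1641 ± 390 in columella, 747 ± 244 in stele, 416 ± 26.8 in epidermis and 62.6 ± 8.97 in protophloem (SD, n = 3). These levels differed between populations (limma F = 26.6, adjusted p = 2.68e-09), as did those of 85.5% of all probe sets tested. Of the neighbours in this order, epidermis and protophloem differed by 2.46 ± 0.54 (SE) in log2 (adjusted p = 0.000262), a comparison in which 57% of probe sets were called. The other neighbours did not pass the test. Cortex and endodermis differed by 0.72, endodermis and columella by 0.32, columella and stele by 1.14, and stele and epidermis by 0.77. Their limma adjusted p were 0.348, 0.712, 0.109 and 0.269, where 26%, 28.2%, 29.6% and 35.2% of probe sets were called. Over a wider step, cortex exceeded stele by 2.17 ± 0.54 (adjusted p = 0.00163, 43% called).

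With salt, AT3G54400 had a lower mean signal in all 6 populations, the property it was chosen by, and this is described without a test. In cortex the standard arrays had 4061, 3558 and 2492 and the salt arrays 601, 396 and 909, which is 5.37-fold lower. In stele 520, 716 and 1005 stood against 56.0, 61.2 and 159, which is 7.44-fold lower. Both pairs of groups were fully apart, as for 49.3% of all probe sets in cortex and 43.1% in stele. The stele difference of AT3G54400 was the 6th lowest of all probe sets tested in that population.

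The columella and epidermis arrays of AT3G54400 were also apart, with smaller gaps. Columella had 1940, 1783 and 1200 on standard medium and 619, 461 and 634 with salt, a log2 difference of -1.48. Epidermis had 440, 421 and 387 against 237, 221 and 243, a difference of -0.79. The share of all probe sets whose arrays did not overlap was 29.5% in columella, 56% in epidermis and 49.3% in cortex, and 15.6% in endodermis and 34.9% in protophloem. The GAPDH control signal at the 5' end over that at the 3' end, a measure of how completely transcripts were copied, averaged 1.52 ± 0.163 on the epidermis arrays without salt and 0.248 ± 0.140 on those with it. With that ratio as a covariate the epidermis difference of AT3G54400 was 0.33 and thus turned its sign. In cortex, where the ratio went from 0.444 ± 0.0595 to 0.150 ± 0.0760, the difference of AT3G54400 was -1.73 with the covariate against -2.43 without.

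Endodermis and protophloem were the populations in which the groups overlapped for AT3G54400. Endodermis had 2643, 2574 and 1181 on standard medium, and 261, 213 and 2582 with salt. Replicates 1 and 2 with salt were low and replicate 3 stood at the level of the standard arrays. On that replicate 3 the late embryogenesis gene LEA4-5 (AT5G06760) had 2772, against 176 to 284 on the standard arrays and 4600 and 5257 on the other salt arrays. AT4G16190 had 877 on it, between those of the other salt arrays. LEA4-5 is on none of the lists and was picked for its salt response. Why replicate 3 stood apart was not tested. The endodermis difference of AT3G54400 was -1.88 with all arrays and -3.01, or 8.03-fold, without that array. In protophloem the gene was near background, at 65.1, 70.1 and 52.7 on standard medium and 29.0, 16.8 and 70.5 with salt, and 2 of these 6 arrays were at or under the 40th percentile.

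The 6 responses of AT3G54400 were not shown to differ from one another. The test of that difference does not use their mean and gave F = 2.79 (limma adjusted p = 0.0669), where 46.6% of all probe sets passed. It did pass without endodermis with salt replicate 3 (F = 8.26, adjusted p = 0.000753) or replicate 2 (3.34, 0.0393), cortex with salt replicate 3 (3.05, 0.0467) or stele with salt replicate 3 (3.40, 0.037). With salt the levels still differed between populations (F = 16.2, adjusted p = 6.17e-07, 73.1% called), at 1019 ± 1354 in endodermis, 636 ± 258 in cortex, 571 ± 96.1 in columella, 234 ± 11.7 in epidermis, 92.0 ± 58.0 in stele and 38.8 ± 28.1 in protophloem. Endodermis heads this order through replicate 3, and as means of log2 values it lay below cortex and columella (9.10 against 9.27 and 9.18). No neighbouring pair in this order passed the test, with adjusted p from 0.0767 to 0.912 and called shares from the top of 29.1%, 40.9%, 29.2%, 21.6% and 9.59%, while cortex exceeded stele by 2.64 ± 0.54 (adjusted p = 0.000391, 42.2% called).

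AT4G16190, the cysteine protease gene, rose in every population tested. In columella, the population it was chosen in, the arrays had 93.8, 150 and 151 on standard medium and 1457, 1390 and 1102 with salt, a 9.12-fold difference given as a description (5.27% of probe sets were called higher there). In epidermis it had 261, 303 and 632 against 1868, 1812 and 1495, a rise of 2.17 ± 0.41 in log2 or 4.49-fold (limma adjusted p = 0.00018). In protophloem it went from 19.3, 7.59 and 38.96, all low signals, to 151, 145 and 159, a rise of 2.23 ± 0.41 (adjusted p = 0.000317). In each of these 3 populations the lowest salt array lay above the highest standard array. Of all probe sets, 29.5% in columella, 56% in epidermis and 34.9% in protophloem had arrays that did not overlap.

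The remaining populations moved the same way. In stele AT4G16190 had 48.3, 93.0 and 317 against 471, 507 and 770, a rise of 2.14 ± 0.41 (limma adjusted p = 0.000442), and the high standard value is again replicate 3. Without that array the stele rise was 2.81, or 6.99-fold. In endodermis it had 390, 395 and 197 against 824, 1153 and 877, a rise of 1.54 ± 0.41 (adjusted p = 0.0359). In cortex it had 1158, 1522 and 1074 against 3596, 3516 and 1579, a rise of 1.12 ± 0.41 (adjusted p = 0.0322). There salt replicate 3 was the lowest and yet above all standard arrays, and 49.3% of all probe sets did not overlap.

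Of the 5 responses of AT4G16190 that were tested, all 5 passed, against 15.6% of probe sets called higher in epidermis, 22.4% in cortex, 1.5% in endodermis, 11.5% in stele and 11.8% in protophloem. The cortex and endodermis calls were the narrow ones: without cortex on standard medium replicate 1 or 3, or with salt replicate 1 or 2, the cortex adjusted p was 0.0822 to 0.135, and the endodermis p was 0.0636 to 0.19 without any one of the standard arrays or without salt replicate 1 or 2. With the GAPDH ratio as a covariate the rise was 2.13 in epidermis (adjusted p = 0.015) and 1.10 in cortex (adjusted p = 0.123), against 2.17 and 1.12 without it.

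**Figure D2:**
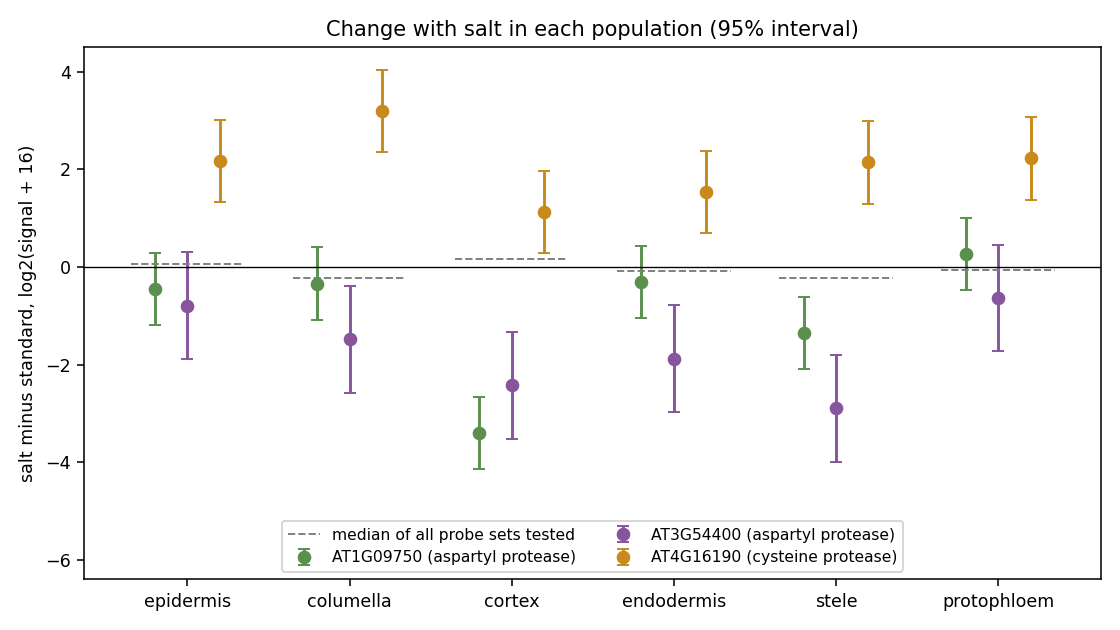
Salt minus standard difference in log2(signal + 16) for each gene in each population, with 95% intervals from the fit to 36 arrays and dashed lines at the median of all probe sets tested. AT4G16190 lies above 0 in all 6 populations, AT3G54400 is lowest in stele (-2.90) and AT1G09750 in cortex (-3.40).

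Levels of AT4G16190 on standard medium ran from 1251 ± 238 in cortex through 399 ± 203 in epidermis, 327 ± 113 in endodermis, 153 ± 144 in stele and 132 ± 32.9 in columella to 21.96 ± 15.8 in protophloem, where the stele mean rests on replicate 3. Because the gene was chosen by its columella arrays, comparisons with columella are given without a test. Cortex exceeded epidermis by 1.70 ± 0.41 (limma adjusted p = 0.00136, 40.1% called) and endodermis exceeded stele by 1.31 ± 0.41 (adjusted p = 0.0174, 29.4% called). Epidermis exceeded protophloem by 3.43 ± 0.41 (adjusted p = 3.53e-08, 57% called). Epidermis and endodermis differed by 0.23 in log2 (adjusted p = 0.672, 47.1% called), less than their spread. Columella lay 0.13 above stele in log2, though below it by mean signal. With salt the order was cortex at 2897 ± 1142, epidermis 1725 ± 201, columella 1316 ± 189, endodermis 951 ± 177, stele 583 ± 163 and protophloem 151 ± 7.09. Of the neighbours with salt, stele and protophloem differed, by 1.81 ± 0.41 (adjusted p = 0.00316, 9.59% called), while cortex and epidermis (adjusted p = 0.189, 49.2% called) and endodermis and stele (adjusted p = 0.282, 15.8% called) did not pass. As a description, the rise in columella exceeded that in cortex by 2.07 in log2.

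The 3 genes thus had separate patterns over the 12 groups. The Pearson correlation of their group means of log2(signal + 16) was 0.52 between the 2 aspartyl protease genes, 0.31 between AT1G09750 and AT4G16190 and 0.32 between AT3G54400 and AT4G16190. These are descriptions over 12 groups that share arrays and lines. In cortex, the population in which each of the 3 had its highest standard signal, AT1G09750 and AT3G54400 were lower and AT4G16190 was higher with salt.

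Other aspartyl protease genes moved in both directions. Of 67 loci listed as pepsin-like aspartyl proteases, 55 had a probe set naming 1 gene. Without the 2 genes above, 38 were tested, and 10 rose and 8 fell in the mean of the 6 salt responses, or 47.4%, against 49.6% of all probe sets (20.8% higher and 28.8% lower). The median mean response was 0.05 in log2, against -0.09 for all probe sets. Cortex had 10 higher and 9 lower calls among the 38, 50% against 38.1% of all (22.4% higher and 15.7% lower). Epidermis had 10 higher and none lower, or 26.3%, against 28.3% of all called and 15.6% called higher. No fall among the 38 was as large as that of AT3G54400, at -1.69 ± 0.22 (SE) in the mean, the largest being -0.98 for AT3G52500, named after its value was seen. This ordering follows in part from how AT3G54400 was chosen.

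Among them NANA (AT3G12700) also had its highest mean signals in cortex, with the opposite course to AT1G09750. Its cortex arrays had 1672, 1501 and 1569 on standard medium and 6304, 5472 and 2074 with salt, a rise of 1.39 ± 0.50 (limma adjusted p = 0.0295). The groups did not overlap, as for 49.3% of all probe sets in cortex, and the lowest salt array was the replicate 3 that stood apart. Without it the cortex rise was 1.88 (adjusted p = 0.00531). In endodermis NANA had 151, 147 and 350 against 1201, 1274 and 698, a rise of 2.27 ± 0.50 (adjusted p = 0.00793), in a population where 1.5% of probe sets were called higher. In columella it was near background and did not pass, with a difference of -0.66 (adjusted p = 0.384).

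Further aspartyl protease genes rose in some populations and not in others. AT5G37540 rose by 2.43 ± 0.49 in stele (limma adjusted p = 0.000766), from 246, 229 and 1702 to 1931, 2931 and 2987, while endodermis had 3712 ± 736 and 3691 ± 1303. The high stele value is the replicate 3 that stood apart, and the rise was 3.35 without it. AT3G02740 fell in protophloem, its highest population, from 3664, 3989 and 4037 to 1680, 2223 and 1171 (-1.24 ± 0.25, adjusted p = 0.000773). It rose in columella from 535, 715 and 876 to 1978, 1827 and 1277 (1.24 ± 0.25, adjusted p = 0.00159). AT4G35880 fell by 0.67 ± 0.12 in the mean response (adjusted p = 3.93e-05), with the same sign in all 6 populations and group means of 32.8 to 141. AT3G59080 rose by 1.01 in the mean response (adjusted p = 3.9e-05).

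**Figure D3:**
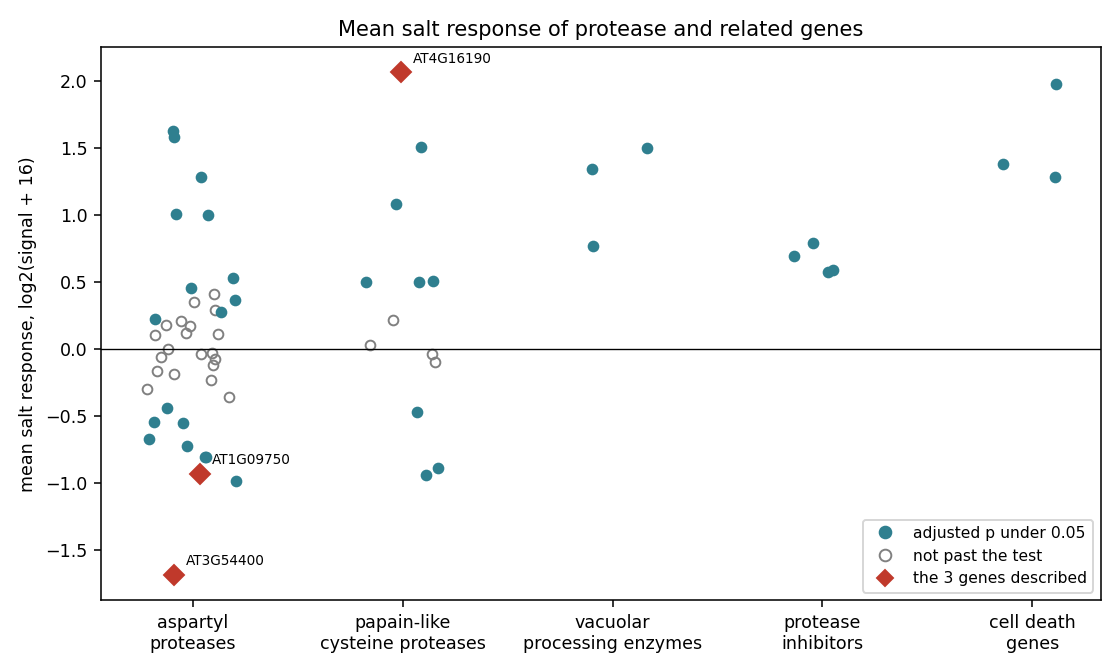
Mean of the 6 salt responses, in log2(signal + 16), for each tested gene of 5 lists; filled points passed the test, open points did not, and red diamonds are the 3 genes described, spread sideways at random for view. AT4G16190 (2.07) is the highest and AT3G54400 (-1.69) the lowest point plotted.

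Papain-like cysteine protease genes also moved in both directions. Of 32 listed loci 19 had a probe set naming 1 gene, and 12 were tested apart from AT4G16190. In the mean response 5 rose and 3 fell, 66.7% against 49.6% of all probe sets, with a median of 0.13. None of the 12 was called in endodermis, where 2.52% of all probe sets were. In epidermis 5 rose and none fell, or 41.7%, against 28.3% of all called and 15.6% called higher. CP1 (AT4G36880, also named RD21A-like protease 1) rose by 1.51 ± 0.19 in the mean (limma adjusted p = 1.63e-07). In stele CP1 had 84.5, 94.1 and 88.6 against 354, 536 and 654, a rise of 2.30 ± 0.47 (adjusted p = 0.000793). These groups did not overlap, as for 43.1% of all probe sets in stele. CP1 was also among the 5 called in epidermis (limma adjusted p = 0.0476), with 97.25, 132 and 129 against 139, 142.5 and 1266. The high epidermis value is salt replicate 3.

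At higher signals, AT3G19390 rose by 1.08 ± 0.17 in the mean (limma adjusted p = 4.72e-06) and by 1.51 ± 0.41 in cortex (adjusted p = 0.0054), from 1052, 883 and 1659 to 3079, 2967 and 3997. AT3G19400 was one of those that fell, by 0.93 ± 0.18 in the mean (adjusted p = 6.6e-05). Its cortex arrays had 447, 431 and 328 against 136, 176 and 188. AT2G21430 rose by 0.50 in the mean (adjusted p = 4.74e-05), AT3G45310 by 0.50 (adjusted p = 0.00245) and AT1G02305 by 0.51 (adjusted p = 0.00294). AT4G16190 is left out of the count that follows, because it was chosen by its columella arrays. None of the remaining genes of the 5 lists was called higher in all 6 populations, where 0.414% of all probe sets were. The most were reached by NANA and GAMMA-VPE, each in 5, as for 0.771% of all probe sets.

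Vacuolar processing enzyme genes rose in the mean response, though not in the same populations. Of 13 listed loci of legumains and metacaspases only 4 had a probe set naming 1 gene, and the 3 that were tested were all vacuolar processing enzymes. All 3 rose in the mean, where 20.8% of all probe sets did. GAMMA-VPE (AT4G32940) rose by 1.35 ± 0.13 in the mean (limma adjusted p = 6.93e-10) and in 5 populations, with columella going from 668, 629 and 524 to 2619, 2861 and 1616. ALPHA-VPE (AT2G25940) rose by 3.06 ± 0.44 in epidermis (adjusted p = 3.82e-06), from low signals of 7.78, 2.31 and 20.9 to 194, 239 and 156. BETA-VPE (AT1G62710) rose by 1.70 ± 0.26 in cortex (adjusted p = 1.12e-05), from 31.6, 47.3 and 49.9 to 172, 206 and 148. It did not pass in epidermis (0.27, adjusted p = 0.486) or columella (0.36, adjusted p = 0.34). None of the 3 was called in endodermis, where 1.5% of all probe sets were called higher.

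Protease inhibitor genes rose in the mean response. Of 10 listed loci, 5 had a probe set naming 1 gene and 4 were tested, and all 4 rose, by 0.58 to 0.79, where 20.8% of all probe sets did. CYS1 (AT5G12140), a cystatin, rose in cortex by 1.22 ± 0.28 (limma adjusted p = 0.00129), from 840, 672 and 655 to 1244, 1726 and 2245. AT5G05110 rose in epidermis by 1.88 ± 0.33 (adjusted p = 6.4e-05), from 77.3, 61.7 and 120 to 315, 375 and 362. SERPIN1 (AT1G47710), a serpin, rose by 0.58 in the mean (adjusted p = 4.36e-05) and AT5G47550 by 0.70 (adjusted p = 6.9e-05). With the GAPDH ratio as a covariate, which moved in epidermis and cortex as given above and in protophloem from 0.0499 ± 0.0318 to 0.162 ± 0.0880, the mean responses of these 4 genes were 0.49 to 0.82 and kept their calls. Its part in their single population responses was not tested.

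**Figure D4:**
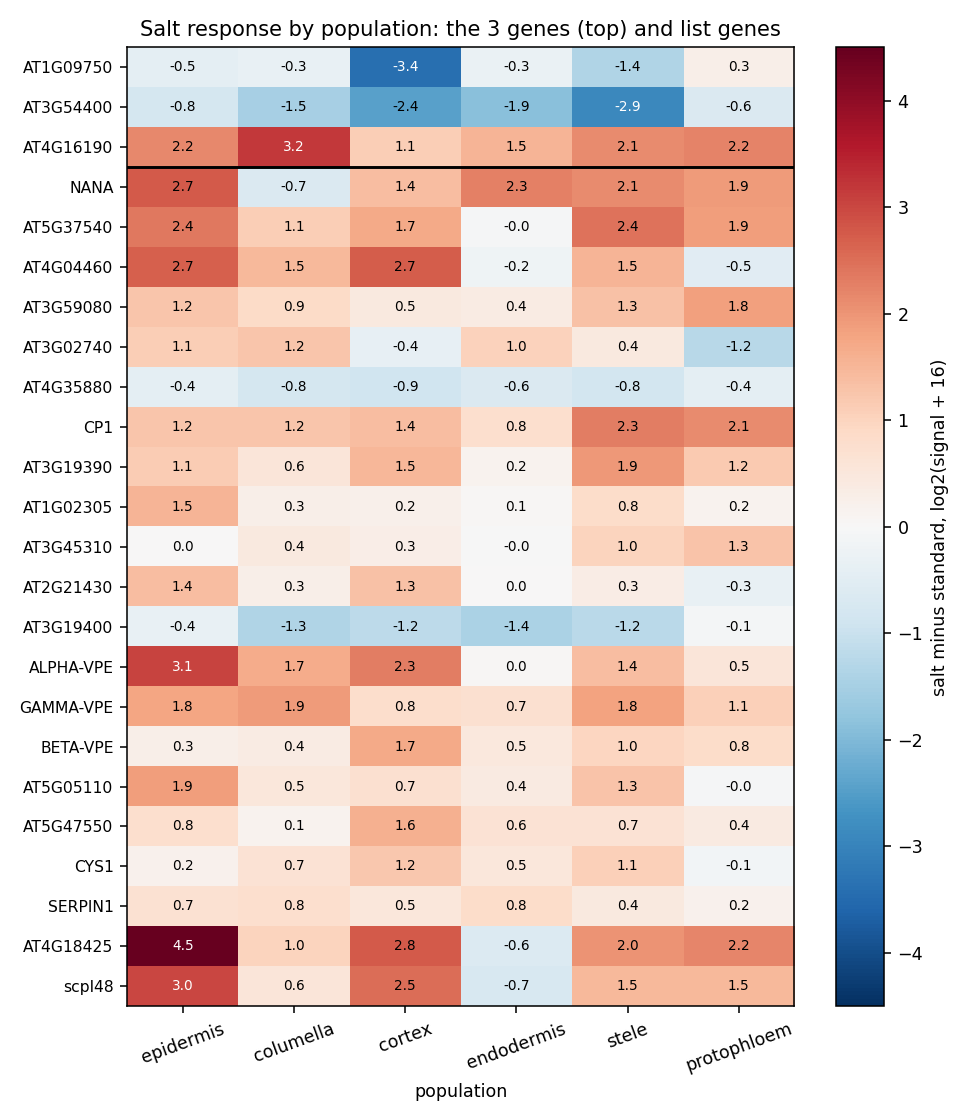
Salt minus standard difference in log2(signal + 16) by population for the 3 genes (top) and the named genes of the lists, with the value in each cell; red is higher and blue lower with salt. AT4G16190 is positive throughout, and endodermis holds the lowest values of ALPHA-VPE (0.05) and AT5G37540 (-0.05).

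Genes with the most similar pattern were ranked by Pearson correlation of the 12 group means of log2(signal + 16), over 9891 other tested probe sets with 1 gene. For AT1G09750 these were AT2G40260 (r = 0.976), the glucosyltransferase gene UGT84A1 (0.963), AT5G13140 (0.955), AT2G38300 (0.955) and AT5G18840 (0.945). Their cortex means were 185 to 285 on standard medium and 22.2 to 61.6 with salt, so the likeness rests on the cortex groups. For AT3G54400 they were UGT76D1 (0.932), AT3G27390 (0.905), THIC (0.895), a gene of thiamine synthesis, AT5G02890 (0.892) and AT3G49050 (0.869). Mean signals in cortex were 1122 without and 391 with salt for AT3G27390, but 88.5 and 76.2 for UGT76D1. For AT4G16190 they were AT5G19440 (0.961), AT1G55450 (0.923), the lectin gene EULS3 (0.922), the aldehyde dehydrogenase gene ALDH7B4 (0.898) and AT5G24430 (0.896). ALDH7B4 had 2040 and 5057 in columella and 3483 and 7777 in cortex, without and with salt. AT5G24430 had 321.5 and 441 in columella, and in cortex it was lower with salt, at 517 and 387. Correlations of 0.9 or more were reached by 21, 2 and 3 probe sets for the 3 genes, and they are descriptions over groups that share lines and arrays.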

How the data were processed

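Transcript levels of 6 root cell populations were measured on 36 ATH1 arrays. The authors deposited linear MAS5 intensities, 1 for each probe set on each array. MAS5 is named in the submitters' processing notes, its version is not given in the sources used here, and RNA had been amplified in a two-cycle protocol per the labels. The mean after trimming 2% from each end was 250.02 to 250.03 on each array, so each had been scaled to one level. Such scaling hides a common shift of most transcripts, and no detection calls or depth were used; the 3 arrays per group limit the precision. Of the probe sets, 13513 name 1 gene in the platform annotation, 503 name several and 8730 name none, and symbols were updated through RefSeq (TAIR10.1).

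The filter kept probe sets whose signal exceeded the array's 40th percentile on 3 or more arrays (17633, of which 9892 with 1 gene; 64 controls left out). These were transformed as log2(signal + 16) and fitted with 12 group means in limma 3.58.1 under R 4.3.3 (lmFit, eBayes with trend, 24 residual degrees of freedom). All p-values are two-sided and Benjamini-Hochberg adjusted over all 17633, with calls under 0.05. The contrasts were salt minus standard per population and their mean, the F-test between the 6 responses, and F-tests and pairs between populations on each medium. The code was tested on simulated data. Figures used Python 3.11.15 with matplotlib 3.10.9.

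The 3 genes and all lists were chosen with earlier results of these data known. Lists were drawn up by locus from general knowledge of the families, since the gene table used here gives no protein descriptions; metacaspases had no tested probe set. Named genes are the 3, up to 6 per list with the smallest adjusted p in the mean response or the difference between responses, and the 5 most correlated probe sets for each. Over the 18 pairs of same-numbered arrays, the correlation of deviations from group means was -0.115 to 0.445, and 8 of 18 exceeded 0.1. Between arrays of different groups its mean was 0.0776 with the same number and -0.0357 with other numbers. Some likeness thus went with the number, but the main fit did not pair arrays by it. Alternatives were pseudocounts of 1 and 64, quantile normalization, no filter, each population alone, no trend, a replicate block, the GAPDH ratio as covariate, replicates 1 and 2 only, and each array left out. Promoter and protein sequences were not analysed here.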

Additional observations from a re-analysis of the deposited data

Results flagged for a closer look

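Responses to salt that differed between the 6 populations were found by the limma F-test of that difference, which 46.6% of all probe sets passed. Apart from the 3 genes, 16 of 38 aspartyl protease genes (42.1%) and 2 of 12 papain-like genes (16.7%) passed it. So did all 3 vacuolar processing enzyme genes, 2 of 4 inhibitor genes and all 3 markers of developmental cell death. The genes named below were picked in part by this same test. AT1G09750 had F = 13.2, with its cortex response (-3.40) below the others; this is a description, since the gene was chosen on cortex. Among aspartyl protease genes AT3G02740 had the largest value of the named ones, F = 15.2 (adjusted p = 3.01e-05), with opposite called changes in columella and protophloem. AT4G04460 had F = 6.22 (adjusted p = 0.00317), NANA (AT3G12700) F = 5.78 (adjusted p = 0.00439) and AT5G37540 F = 3.57 (adjusted p = 0.0302). The papain-like gene AT2G21430 had F = 9.41 (adjusted p = 0.000395), with 1.38 in epidermis and -0.32 in protophloem. ALPHA-VPE (AT2G25940) had F = 6.41 (adjusted p = 0.00274), BETA-VPE (AT1G62710) F = 4.32 (adjusted p = 0.0151) and GAMMA-VPE (AT4G32940) F = 3.07 (adjusted p = 0.0494). The inhibitor genes AT5G05110 and CYS1 (AT5G12140) had F = 4.36 (adjusted p = 0.0146) and F = 3.31 (adjusted p = 0.0389). For scpl48 (AT3G45010) F was 12.4 (adjusted p = 8.46e-05) and for AT4G18425 it was 9.25 (adjusted p = 0.000433).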

How the results depend on the processing

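Of 1338 values of the 30 results on the 3 genes under the alternatives, 1280 kept their direction and side of the threshold, 18 lost and 35 gained the call, and 5 turned sign. These counts include the responses given without a test in the report, for which the values are descriptions; unless the arrays left out show it, the cause was not tested. For AT1G09750, the GAPDH covariate gave 0.10 in epidermis and -0.10 in protophloem. Leaving out single arrays gave -0.59 to 0.11 in endodermis, which includes 0.024 without standard replicate 3 and 0.11 without salt replicate 2. In stele it gave -1.68 to -0.90, and the stele arrays alone gave -1.35. For AT3G54400 in epidermis the values were -0.79 on its own arrays, -0.87 on replicates 1 and 2 and 0.33 with the GAPDH covariate. In columella it had -1.41 (pseudocount 64), -1.60 (quantile), -1.48 (own arrays), -1.48 (replicate block), -1.77 (replicates 1 and 2) and -1.69 to -1.34 without single arrays. In endodermis it had -1.74 (pseudocount 64), -1.88 (replicate block), -3.38 (replicates 1 and 2) and -3.01 to -1.25 without single arrays, and in protophloem -1.12 on replicates 1 and 2. The difference between its responses had F = 3.14 (pseudocount 64), 3.26 (quantile), 3.46 (GAPDH), 19.7 (replicates 1 and 2) and 2.26 to 8.26 without single arrays. For AT4G16190 in cortex the rise missed the threshold at 1.13 (pseudocount 1), 1.06 (quantile) and 1.10 (GAPDH), with 0.92 to 1.51 without single arrays. In endodermis it did at 1.59 (pseudocount 1), 1.47 (quantile) and 1.54 (own arrays), with 1.23 to 1.70. The difference between its responses, a description with F = 2.89 in all arrays, had F = 3.39 (pseudocount 64), 3.53 (quantile), 9.02 (replicates 1 and 2) and 2.17 to 4.94. The replicate block changed no call among the tested results of the 3 genes.

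Quantile normalization moved the median response of all probe sets by 0.193 in columella, -0.212 in cortex and 0.124 in stele. All 924 values of the mean responses of the 21 named list genes kept their direction and call; of 924 for the difference between responses, 850 kept theirs. With the GAPDH covariate 5 aspartyl protease genes fell in the mean response, against 8. Over the alternatives other than single arrays left out, this count was 5 to 12. The count of all probe sets called lower in the mean was 4345 to 5971 over the same settings, against 5073. Counts of all called probe sets moved most in columella and endodermis: with replicates 1 and 2 alone 1954 were higher and 4051 lower in columella (929 and 1574 in all arrays), and 873 and 1107 in endodermis (265 and 179). Each population's arrays alone gave 272 and 267 in columella and 125 and 47 in endodermis, and quantile normalization 822 lower in columella. Elsewhere own arrays alone gave 4232 higher and 3814 lower in epidermis (2757 and 2226 in all arrays), 1431 lower in stele (2445) and 1054 higher and 833 lower in protophloem (2082 and 2191). The GAPDH covariate gave 1809 and 1148 in epidermis, 2076 and 1117 in cortex (3948 and 2771) and 1251 and 1036 in protophloem. Quantile normalization gave 2403 higher in cortex, and replicates 1 and 2 gave 4194 lower in stele and 3323 lower in protophloem. Without single arrays the counts spanned 322 to 1397 and 303 to 2646 in columella, and 138 to 393 and 84 to 518 in endodermis, with 1289 to 2462 and 913 to 3336 in stele and 1256 to 2287 and 984 to 2393 in protophloem. Low signals limit the results of AT1G09750 outside cortex.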

Other observations

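Genes used as markers of developmental cell death, known from the root cap, were also measured. Of 8 listed loci 3 had a probe set naming 1 gene, and all 3 passed the filter and rose in the mean response (20.8% of all probe sets did), though 1 of them, AT4G04460, is also on the aspartyl protease list. The serine carboxypeptidase-like gene scpl48 (AT3G45010) was highest in columella, with 8988, 6785 and 5810 on standard medium. It rose in epidermis from 477, 446 and 762 to 4922, 5202 and 3449 (2.99 ± 0.38, limma adjusted p = 5.49e-07). In endodermis it had 2665, 2551 and 4236 against 1696, 1980 and 1962 and did not pass (-0.70, adjusted p = 0.455).

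AT4G18425 and AT4G04460 were high on replicate 3 of cortex with salt. AT4G18425 had 156, 276 and 1401 there, and AT4G04460 130, 192 and 978, against 39.2 to 54.2 and 26.6 to 36.5 on standard medium. Their cortex rises were 2.77 and 2.73 with all arrays, and 1.89 and 1.90 (adjusted p = 0.00464 and 0.00477, limma) without that array, which also had the higher expansin signal of 837; its part was not tested.

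On standard medium 13 of the 38 other aspartyl protease genes tested (34.2%) had their highest mean in columella, against 18.5% of all probe sets, and 1 (2.63%) in epidermis, against 18%. For the 12 papain-like genes columella held 4 (33.3%) and stele none, against 18.1% of all probe sets in stele.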
